A study of Mus musculus with 24 samples.

Results

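Livers of mice injected with extracellular vesicles (EVs) labelled as coming from MDA-MB-231 cells were compared with livers of mice injected with phosphate-buffered saline (PBS). The comparison took 12 of the 24 RNA-seq libraries of the study, the 6 with the treatment label MDA-MB-231 EV and the 6 with the label PBS, and no measured value entered the choice. EVs are membrane particles that cells release, carrying protein, lipid and RNA. MDA-MB-231 is a human triple-negative breast cancer line, and MCF10A, the source of the vesicles in the other groups, is a human breast epithelial line that does not form tumours. Every mouse was a female of the NSG (NOD scid gamma) strain, given in the labels as 8 weeks old. Injections went into a tail vein 2 times per week over 5 weeks, each EV dose was about 10 µg, and livers were taken 2 days after the final dose. NSG mice lack mature T, B and natural killer cells and keep macrophages and granulocytes. Groups are called by their treatment label, although the names of all 6 libraries labelled MDA-MB-231 EV refer to the MCF10A/miR-122 vesicles (10A-122-exo and like forms). The group labelled MCF10A/miR-122 EV carries names that refer to MDA-MB-231 exosomes in turn. The values below therefore describe the group as labelled, and whether the label or the name is right was not tested.

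The liver keeps blood glucose stable between meals by releasing stored glycogen and by gluconeogenesis, the synthesis of glucose from lactate, glycerol and amino acids. Glucagon, through cyclic AMP, and glucocorticoids turn on genes of gluconeogenesis and amino acid breakdown, and insulin turns them off. The same genes follow a daily rhythm, set by feeding time and by the hepatic clock, in which ARNTL with CLOCK or NPAS2 drives the Per genes and the PER proteins repress ARNTL in turn. EVs of cancer cells are known to reach the liver, where macrophages take up many of them.

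Library totals were 25.7 ± 2.01 M (mega) counts with PBS and 30.6 ± 1.04 M with MDA-MB-231 EVs (SD, n = 6 each). The 2 groups also lay in different sets of consecutive library numbers: PBS and MCF10A EV held the first 12 numbers, and the other EV groups the last 12. Nothing in the labels says what the sets are, and library set and treatment cannot be told apart in this comparison. PBS replicate 5 stood apart from the other PBS libraries in clock and chaperone genes and PBS replicate 3 in cell cycle genes, and the values without them are given where they matter. Replicate 5 was also apart over all genes with enough counts, at a chi-square per gene of 93.2 to 163.9 in its pairs. Other PBS pairs had 21.8 to 113.1. MDA-MB-231 EV replicate 2 likewise had 87.4 to 142.7 in its pairs, against 17.2 to 68.8 in the other pairs of its group. Markers checked the tissue: the summed level of 12 hepatocyte genes was 127690 to 152719 CPM with PBS and 149358 to 162752 CPM with the vesicles. Lymphocyte markers summed to 1.30 to 2.39 and 1.46 to 2.93 CPM over 14 genes, with Ncr1 and Gzma at 0 counts in all 12 libraries. CPM stands for counts scaled to a common library size by the TMM method, and it compares a gene between libraries, not 1 gene with another. Some genes share sequence with transcripts of another gene, a copy or an overlapping one, and their reads may have been split. Values are therefore uncertain for Irs1, Hspa1a, Hspa1b, Gm129, Dbp, Lipe, Cebpd, Saa1, Saa2, Serpina3g, Irgm2, H2-T23, Cyp3a59, Stat5a, Mup1, Mup3, Nags, Hamp, Gadd45a, Ccnd1, C1s, Mcm7, Clec4a2 and the histone genes. Exons of another gene also cover 10.3% to 35.3% of the exonic bases of Irs1, Dbp, Nags, Ccnd1, Gadd45a, Hspa1a, Lipe, Cebpd, Smarcd1, Keap1, Parp9, Alas1, C1s, Mcm7 and the 3 histone genes named below. In whole liver, fewer cells of a type and less RNA per cell cannot be told apart.

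Of 13773 genes tested, 1607 (11.7%) differed at an adjusted p of at most 0.05, 734 higher (5.33%) and 873 lower (6.34%) in the MDA-MB-231 EV group. A bare value given with an adjusted p is a log2 fold change throughout. The median log2 fold change over all genes was 0.0034, and the size of the change had a median of 0.50 on the log2 scale among genes that passed, so most differences were modest. A log2 fold change above 1 was found for 114 of the genes that rose and one below -1 for 142 of those that fell. The 6 libraries of 1 group lay beyond all 6 of the other in 6.22% of genes, 2.98% as higher and 3.23% as lower with the vesicles, and 729 of the genes that passed were of this kind. When each of the 12 libraries was left out in turn, 887 genes (371 higher, 516 lower) passed in all 12 fits. Genes are said below to have held where they did so, which was 2.69% of all genes tested for rises and 3.75% for falls. In 128 genes (0.929%) all 12 of the last libraries lay on 1 side of all 12 of the first, and 126 of these were among the 1607, 23 higher and 103 lower. Several genes described below are of this kind, so that MCF10A EV livers also lie with PBS and MCF10A/miR-122 EV livers with MDA-MB-231 EV: Ppp1r3g, Tat, Pfkfb3, Per1, Gm129 and Slc38a2 as higher, and Arntl, H2-T23, Slc7a11, Stat5a and Smarcd1 as lower. The plot of all genes places the genes described below among the rest.

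**Figure D1:**
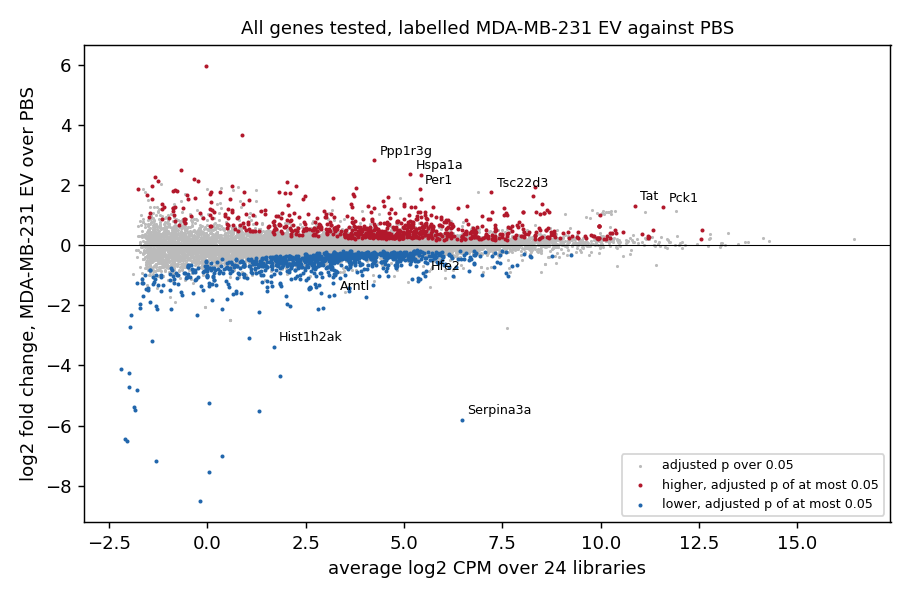
Each point is 1 of 13773 genes, with its average log2 CPM over 24 libraries on the x axis and the log2 fold change of MDA-MB-231 EV over PBS on the y axis. Red points (734) passed the threshold as higher, blue points (873) as lower, and gene names mark those described in the text, from Serpina3a at -5.81 to Ppp1r3g at 2.83.

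Some genes of the gluconeogenesis list were higher in the MDA-MB-231 EV livers. Of 18 gluconeogenesis genes tested, 5 rose and none fell, 27.8% against 11.7% of all genes. The list median was 0.21 against 0.0034 for all genes. Pck1, Tat and Slc37a4 held, while Gpt2 and the coactivator gene Ppargc1a did not pass in every fit that left out 1 library. The list's count was 3 without MDA-MB-231 EV replicate 1, 2, 4 or 5 or PBS replicate 1 or 3. Pck1, which encodes the cytosolic phosphoenolpyruvate carboxykinase of the first committed step, was at 784–2646 CPM (median 1629.9) with PBS and 3566–4446 CPM (median 3954) with MDA-MB-231 EVs (log2 fold change 1.27, SE 0.28, adjusted p = 0.0041). Every treated library lay above every PBS library, and the PBS libraries spread more widely than the treated ones. Tat, the tyrosine aminotransferase that starts tyrosine breakdown, went from 497–1671 CPM (median 948) to 1899–2677 CPM (median 2539) (log2 fold change 1.31, SE 0.24, adjusted p = 0.000879), again with no overlap. Slc37a4, the transporter that brings glucose-6-phosphate into the endoplasmic reticulum, was at 85.1–165 CPM (median 117) and 161–189.7 CPM (median 173) (log2 fold change 0.50, SE 0.12, adjusted p = 0.00662), and the lowest treated libraries lay just below the highest PBS library. G6pc, the glucose-6-phosphatase of the final step, did not pass: it was at 117–576 CPM (median 310.5) and 461–859 CPM (median 709) (log2 fold change 1.02, SE 0.39, adjusted p = 0.0883). Of the PBS libraries, replicates 4, 5 and 6 lay between 451 and 576 CPM, near or within the treated range, and replicates 1, 2 and 3 between 117 and 169.9 CPM. It passed when PBS replicate 5 was left out. G6pc was chosen after its values were seen.

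The promoter of Pck1 holds a match to the cAMP response element, the site through which glucagon signalling is known to act on this gene. It is shown because Pck1 rose with no overlap between the groups. The stretch below is from RefSeq on GRCm38.p6, chr2:173152955-173153012, plus strand, from 118 to 61 bases before the annotated start, with the match in capitals.
Pck1: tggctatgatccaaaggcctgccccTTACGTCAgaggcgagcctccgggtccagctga
Searching TGACGTCA and TTACGTCA on both strands in windows of 300 bases, 250 before and 50 after each annotated start, found a match in 2.28% of 32851 windows. Of the 18 gluconeogenesis genes 14 had a window, and Pck1 was the 1 gene of them with a match. Genes were counted over all their windows, whereas the 2.28% is per window.

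A few genes of glucose uptake, glycolysis and glycogen differed, in both directions. Slc2a2, the GLUT2 transporter of hepatocytes, was at 145–205 CPM (median 184) with PBS and 205–272 CPM (median 251) with the vesicles (log2 fold change 0.46, SE 0.11, adjusted p = 0.00876), while Slc2a1, the ubiquitous GLUT1, fell from 8.13–11.4 CPM (median 10.8) to 5.62–8.1 CPM (median 7.1) (log2 fold change -0.54, SE 0.14, adjusted p = 0.0115). Pfkfb3, an enzyme that makes the glycolysis activator fructose-2,6-bisphosphate, had one of the largest rises, from 3.59–11.9 CPM (median 4.3) to 16.5–26.5 CPM (median 19.1) (log2 fold change 1.91, SE 0.25, adjusted p = 1.53e-05). The treated libraries were all above the PBS libraries, of which replicate 6 was the highest at 11.9 CPM. These 3 genes were the only ones of 22 in the glucose uptake and glycolysis list to pass, and all 3 held. They were 13.6% of the list, against 11.7% of all genes.

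The largest rise among genes named by rule was that of Ppp1r3g, which encodes a subunit that brings protein phosphatase 1 to glycogen and promotes its synthesis. Its 6 PBS values were 0.863, 1.59, 1.8, 1.13, 8.61 and 5.83 CPM, and its MDA-MB-231 EV values 24.3, 18.5, 19.9, 17.8, 22 and 35.6 CPM, which gave a large rise (log2 fold change 2.83, SE 0.58, adjusted p = 0.00264). The lowest treated library was above the highest PBS library, PBS replicate 5. Gys1, the glycogen synthase of muscle and other tissues, fell from 2.46–3.27 CPM (median 2.98) to 1.69–2.13 CPM (median 1.82) (log2 fold change -0.65, SE 0.12, adjusted p = 0.00113) without overlap. They were the 2 of 17 glycogen genes to pass, a share near that of all genes (11.7%), and both held. Without PBS replicate 2 the count was 4. On the insulin side, Irs1, an adaptor of the insulin receptor, rose from 31–37.5 CPM (median 33.1) to 40.6–58.2 CPM (median 43.7) (log2 fold change 0.44, SE 0.10, adjusted p = 0.00552). It was the 1 gene of 18 in the insulin and FOXO list to pass, or 1 of 2 without MDA-MB-231 EV replicate 6. Igfbp1, a FOXO1 target that insulin represses, was at 19.98–78.6 CPM (median 33) with PBS and 57.3–239 CPM (median 126) with the vesicles and did not pass (log2 fold change 1.75, SE 0.64, adjusted p = 0.0729). Igfbp1 was chosen after its values were seen.

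**Figure D2:**
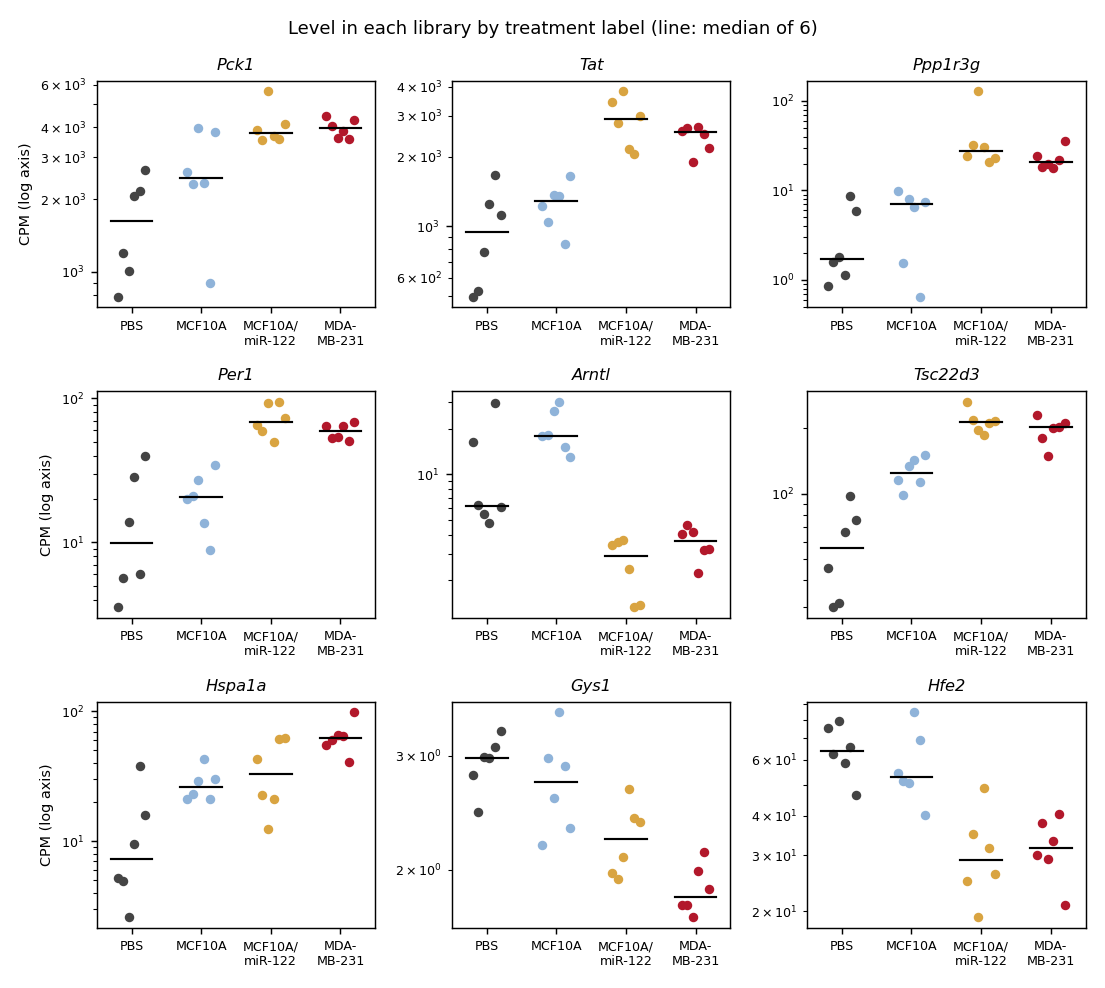
Each panel shows 1 gene, with CPM on a log axis for each of the 6 libraries of the 4 treatment labels and a line at the median. In Pck1, Tat, Ppp1r3g, Per1, Tsc22d3 and Hspa1a all MDA-MB-231 EV libraries lie above all PBS libraries, and in Arntl, Gys1 and Hfe2 all lie below.

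Several genes that respond to glucocorticoids rose: 5 of 20 passed as higher and none as lower, 25% against 11.7% of all genes. The list median was 0.45 against 0.0034 for all genes. The other 15, among them Fkbp5, Sgk1, Klf9, Dusp1, Mt1 and Mt2, did not pass, and the list ran down to -1.38. Tsc22d3, known as GILZ, a glucocorticoid-induced leucine zipper protein that dampens inflammation, was at 30.1–98.2 CPM (median 56.3) with PBS and 149.9–232 CPM (median 202) with MDA-MB-231 EVs (log2 fold change 1.76, SE 0.21, adjusted p = 5.18e-06). The lowest treated library stood well above the highest PBS library. Angptl4, a secreted inhibitor of lipoprotein lipase, rose from 89.3–155 CPM (median 103) to 191–286 CPM (median 245) (log2 fold change 1.08, SE 0.18, adjusted p = 0.000533), likewise without overlap. Per1 and Tat, which belong to this list as well, also held, and Errfi1, a feedback inhibitor of the EGF receptor, passed but did not hold. Without PBS replicate 5 the list had 7 rises and 1 fall.

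Several heat shock chaperones were higher too. Of 25 genes 6 rose and none fell (median 0.27), 24% against 11.7% of all genes. The rises numbered 11 without PBS replicate 5. Hspa1a, an inducible HSP70 gene, was at 5.21, 4.95, 2.58, 9.43, 38.2 and 15.8 CPM with PBS and at 40.8–99.2 CPM (median 62.7) with the vesicles (log2 fold change 2.36, SE 0.48, adjusted p = 0.00222). PBS replicate 5 came close to the lowest treated library, and the others stayed far below. Hspa1b, its near-identical neighbour, ran in parallel (log2 fold change 2.33, adjusted p = 0.00262), and the division of reads between the 2 genes is uncertain. Their cochaperone genes Dnajb1 (1.09, adjusted p = 0.00257) and Dnajb4 (0.87, adjusted p = 0.000172) rose and held. Dnajb4 was at 21.8–37.6 CPM (median 24.1) and 39.5–59 CPM (median 49.2). In the list of the unfolded protein and integrated stress responses, Herpud1, an endoplasmic reticulum protein of misfolded protein disposal, rose from 193–279 CPM (median 248) to 455–666 CPM (median 509.6) (log2 fold change 1.11, SE 0.15, adjusted p = 3.94e-05). Of 31 genes in that list 3 rose and none fell, 9.68% against 11.7% of all genes. Herpud1 alone held, and the count was 8 without PBS replicate 5. It was 1 without any of MDA-MB-231 EV replicates 1, 2 and 3 and PBS replicates 1, 3 and 4.

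The clock repressor genes Per1 and Per2 rose and the activator gene Arntl fell, while most core clock genes did not pass. Of 15 core clock genes tested 3 rose and 2 fell, and of 14 clock output genes 5 rose and none fell (medians 0.03 and 0.38). The shares were 33.3% and 35.7%, against 11.7% of all genes. Per1, a repressor of the clock that also responds to glucocorticoids and cyclic AMP, was at 3.56, 5.68, 13.8, 28.6, 6.09 and 39.8 CPM with PBS and at 50.3–68.4 CPM (median 58.9) with MDA-MB-231 EVs (log2 fold change 1.86, SE 0.41, adjusted p = 0.00461). Per2, its paralog, was at 11.9–26.3 CPM (median 16.9) and 31–56.6 CPM (median 43.7) (log2 fold change 1.30, SE 0.29, adjusted p = 0.00451). In both genes all treated libraries were above all PBS libraries. Arntl, which encodes the activator BMAL1, moved the other way: its PBS libraries were at 16.2, 6.28, 5.48, 4.79, 29.5 and 6.09 CPM and its treated libraries at 2.23–4.6 CPM (median 3.62) (log2 fold change -1.67, SE 0.39, adjusted p = 0.00627). Here PBS replicates 1 and 5 stood far above the other PBS libraries, which came close to the treated ones. Npas2, the alternative partner of ARNTL, was at 12.4 CPM in PBS replicate 5 and at 0.398 to 2.44 CPM in the other PBS libraries, against 0.191–0.472 CPM (median 0.295) with the vesicles. Its log2 fold change was -3.10, adjusted p = 0.0113 with that library and -1.48 (adjusted p = 0.0858) without it, so the call rests on 1 library.

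Clock output genes carry the rhythm from the core loop to metabolism. Gm129, known as Ciart or Chrono, a repressor under clock control, rose from 0.826–10.1 CPM (median 4.38) to 10.3–27.6 CPM (median 15.8) (log2 fold change 1.69, SE 0.41, adjusted p = 0.00913). Usp2, a rhythmic deubiquitinase, rose from 3.04–17.7 CPM (median 7.69) to 14–29 CPM (median 17.3) (log2 fold change 1.23, SE 0.33, adjusted p = 0.0168), with PBS replicate 4 inside the treated range. These 2 genes held, and Tspan4, Alas1 and Nampt did not; the list's count was 2 or 3 without MDA-MB-231 EV replicate 2, 4, 5 or 6 or PBS replicate 1, 2, 3, 4 or 5. Dbp, the output transcription factor with one of the widest daily swings, did not pass, at 39, 97.6, 118, 96.3, 3.57 and 57.6 CPM with PBS and 79.6–127 CPM (median 88.5) with the vesicles (log2 fold change 0.44, SE 0.49, adjusted p = 0.602). PBS replicate 5, high in Arntl and Npas2, was the lowest in Dbp, and PBS replicate 1 was the next lowest. In Per1, Arntl, Npas2 and Dbp the PBS libraries spanned a wider fold range than the treated ones. Dbp was chosen after its values were seen.

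The E-box CACGTG is the site that ARNTL and its partners are known to bind. Promoters of Per1 and Gm129 are shown because these were the 2 genes of the clock lists that rose, held and had a match, with the E-boxes in capitals. Per1 is on GRCm38.p6 chr11:69098758-69098813, plus strand, 191 to 136 bases before the first of 2 annotated starts. Gm129, listed as Ciart, is on chr3:95882242-95882369, minus strand, 141 to 14 bases before its start.
Per1: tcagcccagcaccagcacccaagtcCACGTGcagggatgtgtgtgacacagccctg
Gm129: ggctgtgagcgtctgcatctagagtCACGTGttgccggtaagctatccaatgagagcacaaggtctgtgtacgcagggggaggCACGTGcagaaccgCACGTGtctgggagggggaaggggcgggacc
The Gm129 stretch holds 3 E-boxes and the Per1 stretch 1. The same letters occurred in 7.15% of all 32851 RefSeq windows of 300 bases. That share is per window, whereas a gene was counted below if any of its windows, of which some genes have several, had a match. In the core clock list 2 of 11 genes with a window had a match (Per1 and Cry1), and in the clock output list 3 of 13 (Tef, Gm129 and Tspan4).

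A few lipid genes differed, in both directions. Lpin1, a phosphatidate phosphatase that also acts as a coactivator of fat oxidation genes, was at 48.1, 63.3, 48.3, 50.1, 129.6 and 281 CPM with PBS and at 285–504 CPM (median 403) with the vesicles (log2 fold change 1.95, SE 0.41, adjusted p = 0.00297). PBS replicate 6 nearly reached the lowest treated library, but none overlapped. Lpin2, its paralog, rose from 178–261 CPM (median 219) to 357–507 CPM (median 454) (log2 fold change 1.04, SE 0.17, adjusted p = 0.000317). Among 18 lipid droplet and lipase genes 2 rose and 3 fell, 27.8% against 11.7% of all genes. The fallers that held were Lipe, hormone-sensitive lipase (-0.55, adjusted p = 0.00444), and Plin3, a lipid droplet coat protein (-0.43, adjusted p = 0.00922). Of 19 lipogenesis genes Thrsp alone rose, a nuclear protein of fat synthesis under thyroid hormone and carbohydrate control, from 75.2–254 CPM (median 119) to 194–709 CPM (median 404) (log2 fold change 1.65, SE 0.35, adjusted p = 0.00361). MDA-MB-231 EV replicates 3 and 6 were inside the PBS range, and the count was 2 without replicate 6. None of 23 cholesterol synthesis and LDL uptake genes passed in edgeR (4 at an unadjusted p under 0.05, 2 with DESeq2), with a list median of 0.31. The count was 2 without MDA-MB-231 EV replicate 1 or PBS replicate 4 and 1 without PBS replicate 3. Of 36 fatty acid oxidation genes only Cpt2, the inner mitochondrial carnitine palmitoyltransferase, fell (-0.36, adjusted p = 0.00685), with 2 falls without MDA-MB-231 EV replicate 3 or PBS replicate 5.

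Several genes of interleukin signalling and several acute phase proteins rose. Of 23 genes of the IL-1, IL-6 and STAT3 pathways 7 rose and 1 fell, 34.8% against 11.7% of all genes. Even so, the list median was -0.01. Il1r1, the signalling receptor for interleukin 1, rose from 18.3–28 CPM (median 25) to 41.1–74.1 CPM (median 48.8) (log2 fold change 1.11, SE 0.17, adjusted p = 0.000142), with a clear gap between the groups. Nfkbia, the inhibitor of NF-kappaB, rose from 26–36.4 CPM (median 32.4) to 45.2–65.5 CPM (median 51) (log2 fold change 0.72, SE 0.14, adjusted p = 0.00136), and the acute phase transcription factor gene Cebpd (0.77, adjusted p = 0.00687) and the cytokine gene Il18 (0.39, adjusted p = 0.00268) rose and held as well. The remaining 4 did not hold: 8 calls became 4 without PBS replicate 3 and 5 without MDA-MB-231 EV replicate 2, 3 or 4 or PBS replicate 2 or 4.

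Of 34 acute phase genes 5 rose and 1 fell (median 0.09), 17.6% against 11.7% of all genes. Saa4, the constitutive serum amyloid A, rose from 137–174 CPM (median 159.6) to 194–281 CPM (median 242) (log2 fold change 0.58, SE 0.09, adjusted p = 0.000182) without overlap. Hp, haptoglobin, rose from 1575–2010.1 CPM (median 1831) to 2207–3044 CPM (median 2366) (log2 fold change 0.49, SE 0.10, adjusted p = 0.00322), also without overlap, and Apcs, serum amyloid P, from 259.7–422 CPM (median 304) to 384–478 CPM (median 457) (log2 fold change 0.49, SE 0.12, adjusted p = 0.0118). The inducible amyloids did not pass. Saa1 was at 16.2–49.8 CPM (median 24.1) with PBS and 23.2–80.6 CPM (median 33) with the vesicles (log2 fold change 0.52, SE 0.28, adjusted p = 0.245), Saa2 had 0.32, adjusted p = 0.622, and Saa3 had -0.0014, adjusted p = 0.998. Their ranges overlapped throughout. Lcn2, lipocalin 2, did not pass either (0.42, adjusted p = 0.239). Serpina3g, a protease inhibitor gene of the mouse Serpina3 cluster, fell from 149–391 CPM (median 247) to 106–176 CPM (median 133) (log2 fold change -0.94, SE 0.21, adjusted p = 0.00465). Saa1, Saa2, Saa3 and Lcn2 were chosen after their values were seen.

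Several interferon-stimulated genes were lower. Of 53 tested 8 fell and 1 rose (median -0.21), 17% against 11.7% of all genes. Only 5 fell and none rose without PBS replicate 3. Irgm2, an immunity-related GTPase, fell from 49.5–72.8 CPM (median 64) to 25.4–41.7 CPM (median 34.8) (log2 fold change -0.86, SE 0.16, adjusted p = 0.0014), and Tap1, a peptide transporter of antigen presentation, from 16.4–21.7 CPM (median 20.5) to 9.7–14.7 CPM (median 13.1) (log2 fold change -0.61, SE 0.14, adjusted p = 0.00657). In both genes no treated library reached the PBS range. Irf1, a transcription factor of the interferon response (-0.57, adjusted p = 0.0115), and Parp9, an ADP-ribosyltransferase of that response (-0.36, adjusted p = 0.00627), held too. Of 21 MHC presentation genes 1 rose and 2 fell, a share of 14.3% near that of all genes (11.7%). The non-classical class I gene H2-T23 fell from 127–142 CPM (median 135) to 98.3–109 CPM (median 104) (log2 fold change -0.38, SE 0.06, adjusted p = 0.000414). None of 22 macrophage and Kupffer cell markers, 16 sinusoidal endothelial markers or 17 stellate and matrix genes passed in edgeR, and none of 18 premetastatic niche factors did. At an unadjusted p under 0.05 the counts were 2, 1, 2 and 1, and DESeq2 and limma-voom called none in these 4 lists. Without PBS replicate 5 there was 1 fall each among niche factors and stellate genes, and without MDA-MB-231 EV replicate 1 there was 1 among the latter. With the identities of the library names, 12 macrophage markers and 1 endothelial marker passed as higher, and no stellate gene passed. Among niche factors 5 then rose and 1 fell. Summed over 22 genes, the macrophage markers were at 497 to 636 CPM with PBS and 464 to 658 CPM with the vesicles. Neutrophil markers summed to at most 6.70 and 3.07 CPM over 11 genes.

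Some genes of drug, bile acid and sex-dependent metabolism differed, and most members of these lists did not pass. Of 39 cytochrome P450 and nuclear receptor genes 7 rose and 3 fell (median 0.12), 25.6% against 11.7% of all genes. Cyp2c44, Cyp3a13, Nr1i2 and Cyp3a59 held. The count of 10 was 5 without PBS replicate 3 and 6 without MDA-MB-231 EV replicate 1, 3 or 4 or PBS replicate 1 or 4. Cyp3a13, a broad-substrate monooxygenase, rose from 26.7–36.7 CPM (median 32.1) to 38.9–55.8 CPM (median 47.6) (log2 fold change 0.57, SE 0.12, adjusted p = 0.0037), and Nr1i2, the xenobiotic receptor PXR, from 70.5–98.7 CPM (median 82.9) to 92.5–123 CPM (median 111) (log2 fold change 0.40, SE 0.11, adjusted p = 0.016). Cyp3a59, which shares sequence with other Cyp3a genes, fell from 239–292 CPM (median 257) to 153–174 CPM (median 165) (log2 fold change -0.68, SE 0.13, adjusted p = 0.00128). Of 35 phase II and NRF2 genes 3 rose and 3 fell, 17.1% against 11.7% of all genes. Slc7a11, the cystine importer that feeds glutathione synthesis, fell from 5.54–8.5 CPM (median 7.1) to 2.93–4.24 CPM (median 3.37) (log2 fold change -1.01, SE 0.11, adjusted p = 8.52e-07) without overlap, and Keap1, the repressor of NRF2, had -0.22, adjusted p = 0.0086.

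Of 25 bile acid genes 2 rose, 8% against 11.7% of all genes. They were Cyp7b1 and the uptake transporter gene Slco1a1 (0.44, adjusted p = 0.0101), and both are known as male-biased in mouse liver. Cyp7b1, the oxysterol 7-alpha-hydroxylase of the alternative bile acid pathway, rose from 24.9–36.4 CPM (median 31.5) to 42–82.2 CPM (median 53.3) (log2 fold change 0.87, SE 0.16, adjusted p = 0.000961), and all treated libraries were above all PBS libraries. Of 24 male-biased genes 6 rose and none fell (median 0.47), and of 25 female-biased genes 3 fell and none rose (median -0.27), in mice that were all female. The shares were 25% and 12%, against 11.7% of all genes. Without MDA-MB-231 EV replicate 2 the male-biased count was 3. Among female-biased genes 1 fell without PBS replicate 1, and 5 fell when PBS replicate 6 was left out. With the identities of the library names, 0 male-biased genes rose and 1 fell, and 1 female-biased gene rose and 2 fell. Cux2, a repressor of male-biased genes in female liver, fell from 26.2–89.5 CPM (median 56.4) to 11.2–33.6 CPM (median 26.6) (log2 fold change -1.12, SE 0.31, adjusted p = 0.0182), with overlap. In the growth hormone axis, known to set these sex differences, the receptor gene Ghr rose from 371–421 CPM (median 402) to 437–577 CPM (median 516) (log2 fold change 0.34, SE 0.07, adjusted p = 0.00349) and the signal transducer gene Stat5a fell from 16.6–27.4 CPM (median 21.1) to 11.1–16 CPM (median 13.3) (log2 fold change -0.67, SE 0.14, adjusted p = 0.00266). None of 20 major urinary protein genes passed in edgeR (median 1.05; 1 at an unadjusted p under 0.05, 1 with DESeq2 and 1 with limma-voom), and 13 rose without PBS replicate 5. These genes share most of their sequence, and Mup1 alone ranged over 106–2610.1 CPM (median 542) with PBS and passed when PBS replicate 5 was left out. Mup1 was chosen after its values were seen.

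Of amino acid transporter genes 2 rose, while some genes of the urea cycle, amino acid breakdown and metal handling fell. Slc38a2, the sodium-coupled amino acid importer SNAT2, rose from 70.6–171 CPM (median 98.9) to 185–275 CPM (median 215) (log2 fold change 1.01, SE 0.20, adjusted p = 0.00213) without overlap. Slc16a10, an aromatic amino acid transporter, rose as well (0.47, adjusted p = 0.00772). These were the 2 of 20 amino acid transporters to pass, a share of 10% near that of all genes (11.7%). Without PBS replicate 3 or 6 there were 4. Of 35 urea cycle and amino acid catabolism genes 5 fell and none rose (median -0.04), 14.3% against 11.7% of all genes. The 2 that held were Bckdk, the kinase that inhibits branched-chain amino acid breakdown (-0.51, adjusted p = 0.00239), and Nags, the synthase of the urea cycle activator N-acetylglutamate (-0.40, adjusted p = 0.00519). The count was 2 without MDA-MB-231 EV replicate 6 or PBS replicate 1 or 5, and 3 without MDA-MB-231 EV replicate 3, 4 or 5 or PBS replicate 3 or 4. Tat, which starts tyrosine breakdown, is counted in the gluconeogenesis list instead, and it rose (1.31, adjusted p = 0.000879). Of 25 iron and metal genes 4 fell and none rose (median -0.02), 16% against 11.7% of all genes. Hfe2, hemojuvelin, a coreceptor that drives hepcidin expression, was at 46.4–79.6 CPM (median 64.1) with PBS and 20.9–40.5 CPM (median 31.7) with the vesicles (log2 fold change -1.01, SE 0.20, adjusted p = 0.00172), and no library overlapped. Hepcidin itself, Hamp, was at 937–1182 CPM (median 1032) and 963–1298 CPM (median 1166) and did not pass (log2 fold change 0.14, SE 0.15, adjusted p = 0.56). The zinc exporter gene Slc30a1 (-0.46, adjusted p = 0.00664) and the iron importer gene Slc11a2 (-0.45, adjusted p = 0.0169) fell. Hamp was chosen after its values were seen.

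Some regulators of hepatocyte identity and Wnt signalling were lower. Of 22 hepatocyte transcription factors 5 fell and 1 rose (median -0.13), 27.3% against 11.7% of all genes. Gata4 and Foxa2 held. Gata4 fell from 12.1–17.3 CPM (median 15.8) to 7.73–10.6 CPM (median 8.78) (log2 fold change -0.81, SE 0.12, adjusted p = 0.000165) and Foxa2, a pioneer factor, from 24.2–34.4 CPM (median 30.7) to 15.9–19.7 CPM (median 18.2) (log2 fold change -0.76, SE 0.19, adjusted p = 0.00908). Neither overlapped. The count of 6 was 2 without MDA-MB-231 EV replicate 6 and 3 without PBS replicate 2. Of 26 Wnt and pericentral genes 5 fell and 3 rose, 30.8% against 11.7% of all genes tested. The 3 risers were Cyp1a2, Cyp2e1 and Lect2, and none of them held. The 4 that held were all fallers: the receptor genes Fzd6, Fzd7 (-0.42, adjusted p = 0.0134) and Fzd8 (-0.88, adjusted p = 0.00778) and the repressor gene Tcf7l1 (-0.41, adjusted p = 0.0165). The count of 8 was 5 without MDA-MB-231 EV replicate 1, 4 or 6. Fzd6 fell from 3.04–10.2 CPM (median 7.18) to 1.75–2.43 CPM (median 2.18) (log2 fold change -1.70, SE 0.21, adjusted p = 6.94e-06), with every treated library below every PBS library.

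Some cell cycle genes were lower. Of 25 genes of cyclins, CDK inhibitors and p53 targets 1 fell and 1 rose, 8% against 11.7% of all genes. Gadd45a, a stress and DNA damage gene, fell from 2.27–14.3 CPM (median 8.16) to 1.09–2.93 CPM (median 2.14) (log2 fold change -1.95, SE 0.36, adjusted p = 0.00114), with PBS replicate 6 inside the treated range. Trp53inp1, a p53-induced stress protein gene, rose from 45.4–79.3 CPM (median 63.9) to 94.8–147 CPM (median 112) (log2 fold change 0.84, SE 0.19, adjusted p = 0.00463). Mitosis and replication genes were tested as a list of 33, in which 6 were lower and none higher (median -0.32). That share was 18.2% against 11.7% of all genes. Cenpf, a kinetochore protein gene, and Mcm7, a subunit of the replicative helicase, held. Leaving out PBS replicate 3 gave a count of 2, and leaving out PBS replicate 4 or MDA-MB-231 EV replicate 1, 2, 3 or 5 gave 3. Cenpf was at 4.38 CPM in PBS replicate 3 and at 0.531 to 1.83 CPM in the other PBS libraries, against 0.397–1.06 CPM (median 0.574) with the vesicles (log2 fold change -1.36, SE 0.35, adjusted p = 0.0133). Without PBS replicate 3 its log2 fold change was -0.81 (adjusted p = 0.0487). Cyclin D1, Ccnd1, was at 66.3–98.5 CPM (median 92) and 50.5–98 CPM (median 66.8) and did not pass (log2 fold change -0.29, SE 0.18, adjusted p = 0.304). Ccnd1 was chosen after its values were seen.

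The other large rises named by the rule belonged to genes of varied function. Cxcl14, a chemokine gene, rose from 0.791–4.52 CPM (median 1.68) to 2.84–11.6 CPM (median 4.76) (log2 fold change 1.74, SE 0.44, adjusted p = 0.0117), with overlap. Sftpa1, which encodes surfactant protein A of the lung, was low throughout, at 0.739–2.34 CPM (median 1.23) with PBS and 3.02–9.6 CPM (median 5.74) with the vesicles (log2 fold change 2.09, SE 0.36, adjusted p = 0.000613). Of 28 apolipoprotein and hepatokine genes 4 rose, and of 41 complement and coagulation genes 8 rose, with none lower in either list (medians 0.17 and 0.15). The shares were 14.3%, near that of all genes (11.7%), and 19.5%. C8a, a chain of the membrane attack complex, rose from 225–304 CPM (median 291) to 356–514 CPM (median 390) (log2 fold change 0.57, SE 0.11, adjusted p = 0.00219), and the hepatokine gene Fetub had 0.39, adjusted p = 0.0158. C8a and C1s held in the complement list, whose count was 3 without MDA-MB-231 EV replicate 2 or PBS replicate 1 or 4. The hepatokine count was 2 without MDA-MB-231 EV replicate 3 or 6 or PBS replicate 1 or 4. None of 75 nuclear oxidative phosphorylation genes passed in edgeR, DESeq2 or limma-voom (11 at an unadjusted p under 0.05). Of 79 cytosolic ribosomal protein genes 2 fell, or 1 without MDA-MB-231 EV replicate 4 or 5 or PBS replicate 2 or 3. The lists are drawn against the share of all genes in the chart of gene lists.

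**Figure D3:**
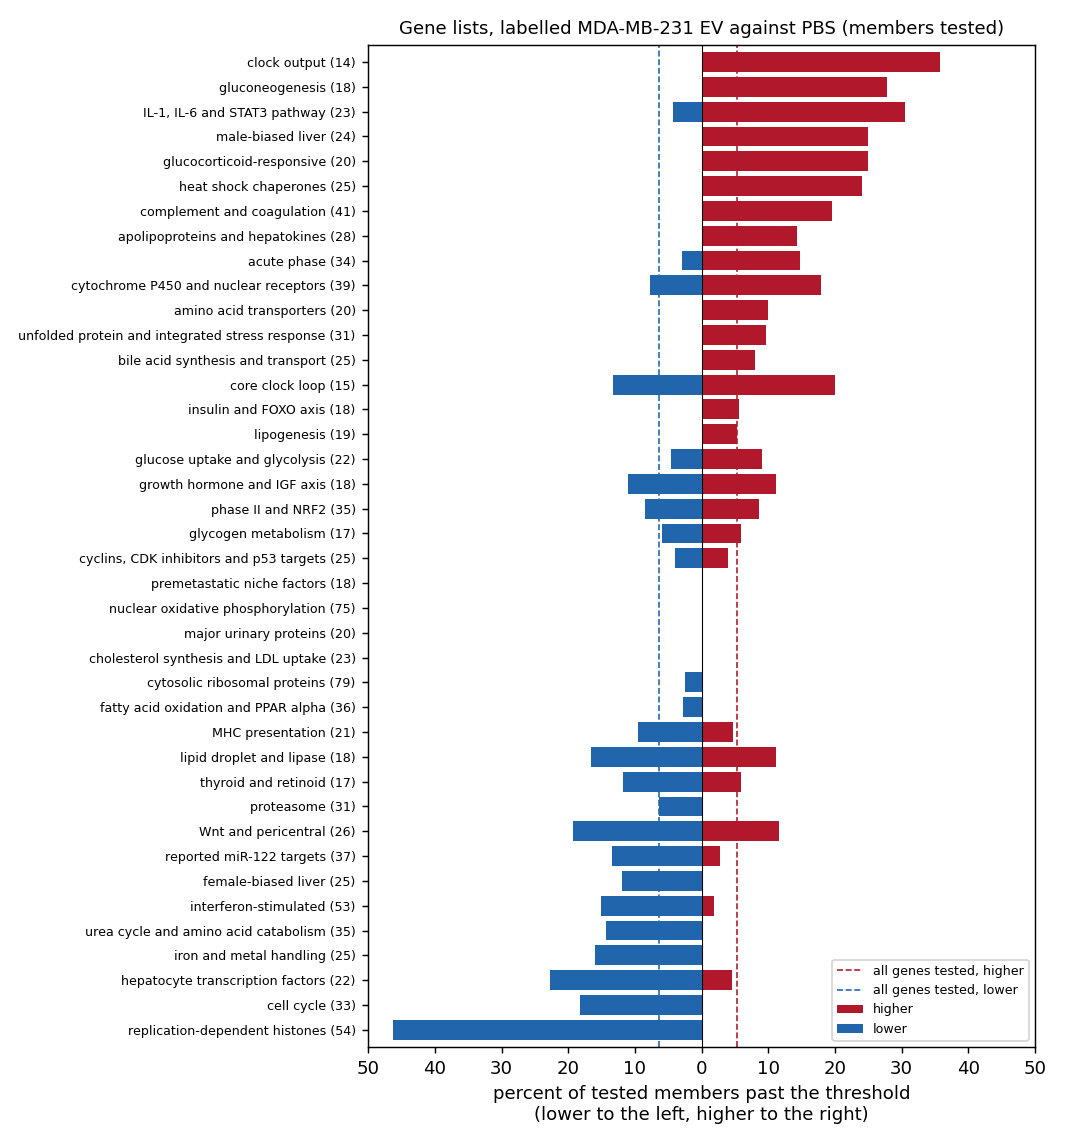
Bars give, for each of 40 gene lists, the percent of tested members that passed the threshold as higher (red, to the right) or lower (blue, to the left) with MDA-MB-231 EVs, and the number in brackets is the members tested. Dashed lines mark all genes tested, 5.33% higher and 6.34% lower. Clock output genes (5 of 14) reach furthest for rises and replication-dependent histones (25 of 54) furthest for falls.

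Reported targets of miR-122 were looked at because the library names of this group refer to that microRNA, an abundant hepatocyte microRNA that represses its targets. Of 37 such genes 5 fell and 1 rose, 16.2% against 11.7% of all genes tested, and the list median was -0.02. The fallers included Gys1, Hfe2 and Bckdk, described above, and Smarcd1, a subunit of the SWI/SNF chromatin remodeller, which went from 4.49–7.61 CPM (median 5.67) to 3.62–4.39 CPM (median 3.83) (log2 fold change -0.56, SE 0.13, adjusted p = 0.00521). Smarcd1 was chosen after its values were seen. In all 4 of these genes every treated library lay below every PBS library, as in 3.23% of all genes tested. The remaining faller, Rell1 (-0.68, adjusted p = 0.0422), lost its call in 8 of the 12 fits that left out 1 library. Rell1 was also chosen after its values were seen. P4ha1, a collagen prolyl hydroxylase subunit and also a reported target, moved the other way, from 8.14–20.8 CPM (median 9.99) to 22.6–47.6 CPM (median 30.5) (log2 fold change 1.47, SE 0.27, adjusted p = 0.00106), likewise with no overlap. Against the MCF10A/miR-122 EV group the 5 genes other than Rell1 did not pass. Gys1 had -0.26, adjusted p = 0.576, Hfe2 0.05, adjusted p = 0.983, Bckdk 0.09, adjusted p = 0.902, Smarcd1 0.05, adjusted p = 0.967 and P4ha1 0.33, adjusted p = 0.822. Against MCF10A EVs Gys1 had -0.55, adjusted p = 0.00557, Hfe2 -0.87, adjusted p = 0.00759, Bckdk -0.45, adjusted p = 0.00767 and Smarcd1 -0.62, adjusted p = 0.00296, all of which passed as lower, and P4ha1, which did not pass, had 0.61, adjusted p = 0.159. These comparisons share the MDA-MB-231 EV libraries with the one against PBS.

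Serpina3a and a number of histone genes were among those with a complete split between the first 12 and the last 12 libraries. Serpina3a, a protease inhibitor of the Serpina3 cluster, was at 109–298 CPM (median 143) with PBS and 0.466–5.85 CPM (median 2.6) with MDA-MB-231 EVs (log2 fold change -5.81, SE 0.58, adjusted p = 1.97e-07). MCF10A EV livers, in the first set, were at 128–325 CPM (median 170.3), and MCF10A/miR-122 EV livers, in the last, at 0.285–4.92 CPM (median 0.624). Ptcra, which encodes the pre-T-cell receptor alpha chain, had 47 to 65 counts per PBS library and 0 to 1 per treated library. The MCF10A EV and MCF10A/miR-122 EV libraries split in the same way. Acta1, skeletal muscle actin, was at 3.56–4.92 CPM (median 3.98) and 1.06–1.8 CPM (median 1.41) (log2 fold change -1.52, SE 0.15, adjusted p = 1.26e-07), and the 9 muscle markers summed to 3.95 to 5.22 and 1.55 to 2.20 CPM. Prdx6b, a peroxiredoxin 6 relative, fell from 10.1–12.4 CPM (median 11.1) to 3.28–4.32 CPM (median 3.43) (log2 fold change -1.60, SE 0.09, adjusted p = 5.89e-12). Ptcra was chosen after its values were seen.

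Histone genes were the largest list of this kind. Of 54 replication-dependent histone genes 25 fell and none rose (median -0.52), 46.3% against 11.7% of all genes. In this list 21 held, and in 14 the sets did not overlap. Hist1h2ak, a histone H2A gene, was at 4.83–5.94 CPM (median 5.32) with PBS, 4.95–7.64 CPM (median 6.1) with MCF10A EVs, 0.433–0.958 CPM (median 0.632) in the MCF10A/miR-122 EV group and 0.266–0.635 CPM (median 0.538) in the MDA-MB-231 EV group (log2 fold change -3.37, SE 0.18, adjusted p = 1.28e-12 against PBS). Hist1h2af (-2.04, adjusted p = 1.54e-09) and Hist1h2ab (-1.46, adjusted p = 2.04e-08) followed the same split. These histones package newly made DNA, and most of their mRNAs end without a poly(A) tail. Saa1 did not follow the sets: it was at 339–823 CPM (median 551) in the MCF10A/miR-122 EV group against 23.2–80.6 CPM (median 33) in the MDA-MB-231 EV group, as the plot by library number shows.

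**Figure D4:**
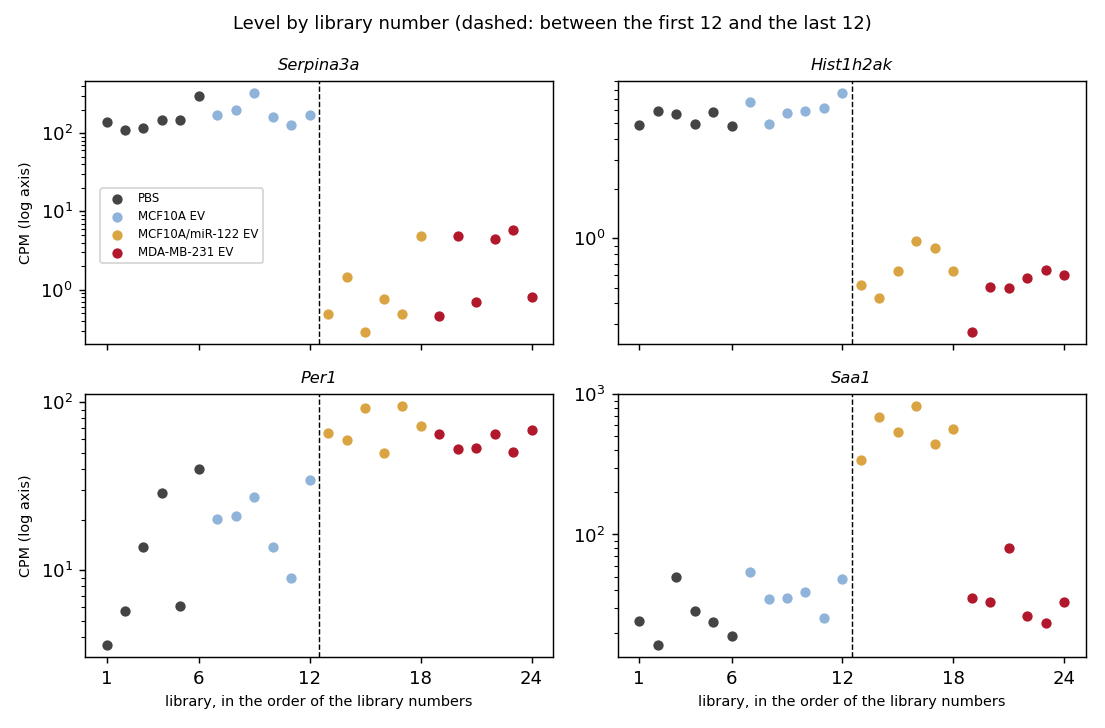
Points are the 24 libraries in the order of their numbers (x axis) with CPM on a log axis, coloured by treatment label, and the dashed line parts the first 12 from the last 12. Serpina3a and Hist1h2ak drop at the line in all libraries, Per1 lies at 50.3–68.4 CPM (median 58.9) in the last 6, and Saa1 is high in libraries 13 to 18, the group labelled MCF10A/miR-122 EV, only.

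The test within the last set asks where the MDA-MB-231 EV group differs from the other group that shares its library numbers. It called 35 of 13773 genes (0.254%), 6 of them higher and 29 lower. The unadjusted p was under 0.05 for 1128. Of the 35 genes 8 were also among the 1607. Cyp7b1, higher than with PBS, was also higher than in the MCF10A/miR-122 EV livers, which were at 25.4–38 CPM (median 31.8) (log2 fold change 0.82, adjusted p = 0.0181). Cd207, which encodes the lectin langerin, was at 0.261–0.863 CPM (median 0.767) with PBS, 1.47–5.69 CPM (median 1.9) with MDA-MB-231 EVs and 0.376–0.929 CPM (median 0.673) in the MCF10A/miR-122 EV group (log2 fold change 1.97, SE 0.40, adjusted p = 0.00219 against PBS; 2.06, adjusted p = 0.0175 between the EV groups). Its level was low, and MCF10A EV livers ranged over 0.712–4.45 CPM (median 1.45). The metabolic and clock genes above did not pass in this test: Pck1 had -0.04, adjusted p = 0.989, Tat -0.25, adjusted p = 0.863, Ppp1r3g -0.91, adjusted p = 0.705, Per1 -0.29, adjusted p = 0.927, Tsc22d3 -0.14, adjusted p = 0.936 and Hspa1a 0.80, adjusted p = 0.703. The count of 35 rested on single libraries: it was 13, 82, 54 and 21 without MCF10A/miR-122 EV replicate 3, 4, 5 or 6, and 17, 18 and 19 without MDA-MB-231 EV replicate 2, 3 or 5. A p that misses the threshold does not show that the groups are alike.

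Against MCF10A EVs, which lie in the first set as PBS does, 1058 genes (7.68%) passed, 446 higher and 612 lower. Several genes that rose against PBS were higher than with MCF10A EVs as well. Pfkfb3 had 1.44, adjusted p = 0.00044, Thrsp 1.57, adjusted p = 0.00681, Per2 1.37, adjusted p = 0.00422, Ppp1r3g 2.02, adjusted p = 0.0258, Tat 0.95, adjusted p = 0.0131 and Herpud1 0.71, adjusted p = 0.00476. Gm129 had 3.53, adjusted p = 2.22e-05, and Dbp, which did not pass against PBS, had 2.87, adjusted p = 0.00129. Others did not pass against MCF10A EVs: Pck1 (0.58, adjusted p = 0.209), Lpin1 (0.47, adjusted p = 0.525), Tsc22d3 (0.64, adjusted p = 0.056), Angptl4 (0.25, adjusted p = 0.459), Il1r1 (0.25, adjusted p = 0.389) and Hp (-0.15, adjusted p = 0.42). The MCF10A EV livers lay between the others in several of these genes, at 99.1–151 CPM (median 125) for Tsc22d3 and 29.8–58.6 CPM (median 42.2) for Il1r1. This comparison crosses the library sets too and shares the MDA-MB-231 EV libraries with that against PBS.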

How the data were processed

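Whole-liver RNA was measured in 24 libraries, 6 per treatment label. The deposited values are whole-number read counts per gene symbol, without normalization, in a table of 23240 rows. Per the labels' protocols, RNA was extracted with TRIZOL and libraries were made with a stranded mRNA kit. The build mm9, TopHat2 and bcl2fastq 2.18.0.12 are named per the submitters' processing notes. How reads were assigned to genes, and with which strand setting, is not given in the sources used here, so reads of a gene and an overlapping or antisense partner may be mixed. Every library is taken as 1 mouse. Should any mouse have given more than 1 library, p-values measure only the spread between these samples.

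Groups follow the treatment label. The 27 rows that share 11 symbols (0.0744% of counts) were left out. The deposited counts went into edgeR 4.0.16 (R 4.3.3, quasi-likelihood F test) with TMM scaling, filterByExpr and a mean per label group over 24 libraries. Tests were two-sided, with Benjamini-Hochberg adjustment over 13773 genes and a threshold of 0.05. Standard errors (SE) came from the F statistic. The script was tested on simulated data. DESeq2 1.42.0, limma 3.58.1 (voom) and other alternatives were run, and each of the 12 libraries was left out in turn. The common biological coefficient of variation was 16.8%, while the precision of each gene's change is given by its own SE.

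The gene lists and the members were chosen with earlier results of these data known. By rule the text draws on the 12 largest rises and 12 largest falls that passed, had a mean log2 CPM no lower than 1 and had 5 of 6 libraries on that side of the PBS median. Predicted loci were not used. To these the rule adds up to 4 genes with the smallest p per list and up to 6 per test between EV groups. Which of these are printed was chosen after their values were seen. Genes said to share sequence have at least 10% of their 32-mers in another gene's transcripts in GENCODE M21. Promoters are from RefSeq on GRCm38.p6, another build than that of the counts.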

Additional observations from a re-analysis of the deposited data

Results flagged for a closer look

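In 24 of 188 groups of 6 libraries, over 94 genes, 1 library lay farther from the rest than Dixon's critical value for 6 samples allows, a gap that chance gives in about 1 in 20 groups. Among PBS libraries, replicate 3 stood high in Saa1 (49.8 CPM, next library 28.3), Saa2 (44.7 CPM, next 21.2), Saa3 (5.74 CPM, next 3.98) and Cenpf (4.38 CPM, next 1.83). PBS replicate 5 stood high in Npas2 (12.4 CPM, next 2.44), Hspa1a (38.2 CPM, next 15.8), Mup1 (2610.1 CPM, next 895) and P4ha1 (20.8 CPM, next 11.5). PBS replicate 6 stood high in Serpina3a (298 CPM, next 149), Pfkfb3 (11.9 CPM, next 5.00), Lpin1 (281 CPM, next 129.6) and Sftpa1 (2.34 CPM, next 1.29), and PBS replicate 4 in Usp2 (17.7 CPM, next 8.30). In Pfkfb3, Lpin1, Sftpa1 and Usp2 this high PBS library was the one nearest to the treated libraries.

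Among MDA-MB-231 EV libraries, replicate 6 stood high in Ppp1r3g (35.6 CPM, next 24.3), Herpud1 (666 CPM, next 525) and Il1r1 (74.1 CPM, next 49.2) and low in Nags (44.3 CPM, next 54.4). Replicate 2 stood high in Mup1 (4825 CPM, next 1702) and C8a (514 CPM, next 414). Replicate 3 stood high in Irs1 (58.2 CPM, next 44.4), Saa1 (80.6 CPM, next 35.3) and Saa2 (56.7 CPM), and replicate 4 in Dbp (127 CPM, next 90.4). Replicate 5 stood low in Hspb8 (199.6 CPM, next 212).

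The group differed from that labelled MCF10A/miR-122 EV in genes whose effects against PBS therefore differ too, since both share the PBS libraries. The log2 differences were -3.87 for Saa1 (adjusted p = 3.21e-08), -3.93 for Saa2 (adjusted p = 4.24e-06), -4.04 for Saa3 (adjusted p = 9.75e-10) and -1.49 for Lcn2 (adjusted p = 0.00122). They were 0.82 for Cyp7b1 (adjusted p = 0.0181) and 2.06 for Cd207 (adjusted p = 0.0175).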

How the results depend on the processing

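The count of 1607 genes against PBS ran from 1460 (no filter on low counts) to 2013 (DESeq2) over the other tools, scalings and filters, and 1875 passed when only the 12 libraries compared were fitted. With the identities of the library names it was 2463 (1150 higher, 1313 lower), of which 1195 were shared. Leaving out 1 library gave 1132 to 1693, and leaving out PBS replicates 3 and 5 together, chosen after seeing the data, gave 1342. Of 160 genes followed 136 were past the threshold, and without both libraries 40 of these lost their calls. Among them were Slc2a2, Npas2, Usp2, Irf1, Slco1a1, Slc11a2, Cenpf, Fetub and C1s. Cenpf also lost its call when only the 12 libraries were fitted, and Npas2 with limma-voom. The 35 genes against the MCF10A/miR-122 EV group became 98 with DESeq2 and 23 when only those 12 libraries were fitted, with 13 to 82 when 1 library was left out. The 1058 genes against MCF10A EV became 2237 with the library names, and leaving out 1 library gave 711 to 1125. With the library names the direction against PBS turned, among genes past the threshold in either fit, for Cyp17a1 (0.36), Cd5l (0.61), Clec4a2 (0.50), Kcna2 (0.50), Abcc4 (0.25), Cd207 (-0.089) and Saa3 (4.04), which is the other group's value by construction. It also turned for Mup1 (-0.50), Mup3 (-0.066) and Nr1d1 (-0.11), which passed in neither. With the library names 26 more of the genes followed lost their calls without turning. Among them were Cyp7b1 (0.05, adjusted p = 0.851), Slco1a1 (0.10, adjusted p = 0.568), Cux2 (-0.20, adjusted p = 0.69), C8a (0.25, adjusted p = 0.131) and Cxcl14 (0.33, adjusted p = 0.66). Under the other alternatives no gene past the threshold turned, but Saa2 and Saa3, which did not pass, did: Saa2 had -0.16 without MDA-MB-231 EV replicate 3, and Saa3 ran from -0.085 to 0.11. Of the 136 genes followed that were past the threshold, 37 lost the call in at least 1 fit without a library. Same-numbered libraries did not pair: correlations of their deviations were -0.157 to 0.242, and 2 of 6 matched their own number best. A replicate block gave 1719 genes (814 higher, 905 lower), 1507 of them shared. Depth limits genes of few counts such as Cd207 and Ptcra.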

Other observations

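A few genes of the lists above have not been described. Hspb8, a small heat shock protein, was at 138–210.3 CPM (median 154) with PBS and 199.6–219 CPM (median 215) with MDA-MB-231 EVs (log2 fold change 0.39, SE 0.09, adjusted p = 0.00734). Srxn1, sulfiredoxin, an enzyme that repairs oxidised peroxiredoxins, was at 20.3–36.2 CPM (median 26.7) and 15.6–22.9 CPM (median 17.5) (log2 fold change -0.55, SE 0.14, adjusted p = 0.0119). Gstm6, a glutathione S-transferase, was at 74.7–101 CPM (median 88.1) and 96.9–134 CPM (median 125) (log2 fold change 0.45, SE 0.11, adjusted p = 0.0101). Cspg5, a male-biased proteoglycan gene, was at 0.899–1.67 CPM (median 1.05) and 1.28–2.19 CPM (median 1.94) (log2 fold change 0.69, SE 0.18, adjusted p = 0.0165). All 4 passed in each fit that left out 1 library. Hspb8 and Srxn1 were chosen after their values were seen.

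Of 17 thyroid hormone and retinoid genes 1 rose and 2 fell (median 0.01), and none of these calls held. The count was 0 without MDA-MB-231 EV replicate 2 or 4 or PBS replicate 1, and 1 without MDA-MB-231 EV replicate 3 or 5. Of 31 proteasome genes 2 fell, or 1 without MDA-MB-231 EV replicate 4 or 5 or PBS replicate 2, 4 or 5. Red cell markers summed to 472 to 2354 CPM over 9 genes with PBS and 507 to 1023 CPM with the vesicles.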
